A study of Mus musculus with 8 samples.

Results

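Ccl1, Ccl3, Ccl4, Ccl5 and Xcl1 encode chemokines that lymphocytes secrete, and their transcripts were followed across the gated cell classes of mouse hepatoma tumours. The members are the 5 rows of the deposited table that carry these symbols, of 2000 genes in all, and all 5 were found. The tumours came from the mouse hepatoma line Hepa1-6 and were dissociated for droplet-based 3′ single-cell RNA sequencing. The labels describe 4 groups: unedited tumours with intraperitoneal PBS, unedited tumours with intraperitoneal antibody to PD-1, Soat1-edited tumours with PBS and Soat1-edited tumours with the antibody. Soat1 encodes sterol O-acyltransferase, which esterifies cholesterol; the labels are not uniform on the edit, with KO in the titles and knockdown under genotype. The labels used here give no age, strain or number of animals. Each group has a cDNA entry and an oligo entry, 8 entries in all, counted as 1 sample a group.

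All groups sit in 1 table of 53528 cells. The last digit of each cell name, 1 to 6, gives 6 sets of cells, and nothing maps a set to a group. The table is therefore 1 pooled sample: no comparison between unedited and edited tumours, or between PBS and antibody, was made, and no test was run. Differences between classes are given with intervals that cover counting error only, and with the number of the 6 sets that show the same direction. Every value is a natural log. In set 1 the values are the natural log of 1 plus UMIs (unique molecular identifiers, each 1 captured transcript) per 10000 UMIs of the cell, so whole UMI counts were recovered there, and levels in set 1 are given as UMIs of the gene for every 1000000 UMIs (CPM). The cells of set 1 held 1001 to 261833 UMIs, with a median of 11098.5. Sets 2 to 6 were altered by an unrecorded step that left 22.9% to 33.4% of their values below 0. Their class means are read for direction within a set only. Ranges over sets list these means and are not compared as sizes. The part of that step in the agreement of sets was not tested.

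Chemokines are small secreted proteins that attract cells carrying matching receptors. Ccl3, Ccl4 and Ccl5 (MIP-1α, MIP-1β and RANTES) attract T cells, NK cells and myeloid cells, and Ccl3 and Ccl5 bind Ccr1. Xcl1, or lymphotactin, binds Xcr1, which marks the type 1 dendritic cells that cross-present antigen. Ccl1 binds Ccr8, a receptor known on regulatory T cells and some other T cells. Activated CD8 T cells and NK cells are known sources of Ccl3, Ccl4, Ccl5 and Xcl1, and macrophages and neutrophils also make Ccl3 and Ccl4 when stimulated.

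Of the 5 genes, 3 had a start-site sequence in the RefSeq table used here (build GRCm38.p6). They are shown because, across CD8 T cells, Ccl1 and Xcl1 had a positive Pearson correlation in every set, while Ccl3 showed little correlation with either. The rank correlation of Ccl1 and Xcl1 changed sign between sets (values are given with the co-expression results). Whether the sequences bear on these correlations was not tested. Each line gives the 250 bases before the start of the gene, 5′ to 3′ on the gene's strand. Capitals mark matches to either strand of GGAAA, the core that NFAT factors bind, or of TGTGGT, a core that RUNX factors bind.
Ccl1, chr11:82179813-82180062, minus strand: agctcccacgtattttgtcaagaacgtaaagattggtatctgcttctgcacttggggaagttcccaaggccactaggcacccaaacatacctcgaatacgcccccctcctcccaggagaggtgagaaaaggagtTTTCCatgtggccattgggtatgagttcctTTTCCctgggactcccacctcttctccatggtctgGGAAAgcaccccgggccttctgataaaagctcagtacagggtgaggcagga
Ccl3, chr11:83649379-83649628, minus strand: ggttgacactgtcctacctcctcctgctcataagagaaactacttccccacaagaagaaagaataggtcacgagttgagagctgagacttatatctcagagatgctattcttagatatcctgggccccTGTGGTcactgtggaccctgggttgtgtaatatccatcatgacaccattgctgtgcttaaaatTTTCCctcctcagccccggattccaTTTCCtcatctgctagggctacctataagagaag
Xcl1, chr1:164935523-164935772, minus strand: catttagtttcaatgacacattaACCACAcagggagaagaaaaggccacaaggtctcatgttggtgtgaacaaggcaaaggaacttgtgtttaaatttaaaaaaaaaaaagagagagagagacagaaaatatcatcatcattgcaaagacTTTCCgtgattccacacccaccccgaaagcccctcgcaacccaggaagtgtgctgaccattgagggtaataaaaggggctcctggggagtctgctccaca
The Ccl1 window held 3 matches to GGAAA, the Ccl3 window 2 and the Xcl1 window 1. Of 32851 promoter windows of the same length, 55.6% held at least 1 match, so the presence of the core is common. TGTGGT matched once each in the Ccl3 and Xcl1 windows and not in the Ccl1 window, beside 14.0% of all windows. No match to TGANTCA (AP-1), TGACGTCA (CRE), TATAAA or the NF-kappaB consensus lay in the 3 windows, beside 6.75%, 1.55%, 12.4% and 3.90% of all windows. Motifs did not overlap one another in these windows, and a match describes letters, not a bound site. In GENCODE M21 (GRCm38), Ccl3 (chr11:83647844-83649355, minus strand) and Ccl4 (chr11:83662584-83664683, plus strand) are neighbours with 13228 bases between them. Ccl5 (chr11:83525778-83530518, minus strand) and Ccl1 lie on the same chromosome, and Xcl1 (chr1:164931644-164935527, minus strand) lies on another.

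Cells were gated into 8 immune classes by marker genes, none of them a member. Over all sets the gates held 10643 CD8 T, 746 CD4 T, 267 regulatory T, 427 NK, 3975 macrophage, 713 monocyte, 479 neutrophil and 658 dendritic cells, beside 28634 hepatoma cells. In set 1, after 91 of 9370 cells were removed as called doublets, these classes held 1064, 62, 36, 38, 630, 73, 99, 66 and 6325 cells. Median depth in set 1 ran from 1539 UMIs in neutrophils to 5163 in CD8 T cells, against 18018 in hepatoma cells. Genes that took no part in the gates set killer lymphocytes apart from macrophages. Nkg7, a granule protein of killer cells, stood at 1077 CPM in CD8 T and 1270 CPM in NK cells but 19.3 CPM in macrophages. Lyz2, a myeloid lysozyme, stood at 854 CPM in macrophages but 5.39 CPM in CD8 T cells. The T classes were less cleanly apart: Nkg7 was at 673 CPM in CD4 T and 509 in regulatory T cells, and Gzmb at 2011 in regulatory T against 1226 in CD8 T cells. Cd40lg was at 58.6 CPM in CD4 T, 0.829 in CD8 T and 0 in regulatory T cells. Ctla4 was at 3237 CPM in regulatory T, 1426 in CD4 T and 640 in CD8 T cells. Among gate markers, Cd3d was at 15.3 CPM (2 UMIs) in NK cells against 678 CPM in CD8 T cells. Transcripts of hepatoma cells were present in every class: Afp, a hepatoma marker, was at 481 CPM in CD8 T cells, 2659 CPM in neutrophils and 4970 CPM in hepatoma cells. Its part in the results was not tested.

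Levels in the hepatoma cells serve as the comparison level for the immune classes, and the source of these UMIs was not tested. There, Ccl1 was at 0.705 CPM, Ccl3 at 6.05, Ccl4 at 11.4, Ccl5 at 8.36 and Xcl1 at 1.32. Ccl5 was detected in 16.0% of hepatoma cells at full depth, but in 0.955% once each cell was thinned to 1000 UMIs. Per UMI of the T cell gene Cd3d, hepatoma cells held 1.98 Ccl5 UMIs (95% interval 1.79 to 2.18) and CD8 T cells 1.91 (1.85 to 1.98). The other members differed between these classes in that ratio, with 1.43 and 0.688 for Ccl3, 2.69 and 1.45 for Ccl4, 0.167 and 0.0764 for Ccl1, and 0.311 and 0.421 for Xcl1. Cd3d is a gate gene for both classes, counted for T cells and against hepatoma cells. The gates themselves therefore shape these ratios, and neither likeness nor difference in them is read further. Levels of a few CPM are not read below as expression by a class. All intervals in this section are exact 95% intervals, and counts are of 3′ ends, so they were not divided by gene length.

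Ccl3 and Ccl4, inflammatory chemokines made by lymphoid and myeloid cells alike, were spread over every immune class. Ccl4 in set 1 stood at 982 CPM in CD8 T (interval 960 to 1005), 762 in CD4 T (674 to 858), 446 in regulatory T (359 to 547), 1667 in NK (1453 to 1904), 599 in macrophages (569 to 629), 973 in monocytes (857 to 1100), 797 in neutrophils (700 to 905) and 647 in dendritic cells (565 to 737). With all cells the whole range was under 4-fold, but 1 regulatory T cell held 34 of the 92 UMIs of its class, and without it that class stood at 284 CPM. The intervals of CD8 T cells and monocytes overlapped, and so did those of CD4 T cells, neutrophils and monocytes. The interval of dendritic cells overlapped those of macrophages, CD4 T cells and neutrophils. Class means of Ccl4 in the 6 sets put CD8 T cells first in 3 sets and NK cells first in 3, with means of 1.55 to 1.79 and 1.51 to 2.04, so the order of these neighbours was not settled. CD4 T cells, at 0.758 to 0.910, lay below CD8 T cells in 6 of 6 sets.

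Ccl3 had a different leader. Neutrophils held 692 CPM (602 to 792), CD8 T cells 467 (451 to 483), NK cells 337 (245 to 452), monocytes 329 (263 to 407), CD4 T cells 293 (240 to 355), macrophages 144 (130 to 160), regulatory T cells 96.9 (59.2 to 150) and dendritic cells 25.8 (11.8 to 48.9). The intervals of NK cells, monocytes and CD4 T cells overlapped, and so did those of macrophages and regulatory T cells. The upper end for NK cells met the lower end for CD8 T cells. By class means neutrophils were the highest in 4 of 6 sets, CD8 T cells in 1 and NK cells in 1. Within sets, the neutrophil mean minus the CD8 T mean ran from -0.238 to 0.920 and was positive in 5 of 6 sets.

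The balance of the pair therefore differed by class. In set 1 there were 2.10 Ccl4 UMIs for each Ccl3 UMI in CD8 T cells (2.02 to 2.19), 4.95 in NK cells (3.57 to 7.02), 4.15 in macrophages (3.70 to 4.66), 2.95 in monocytes (2.30 to 3.82) and 1.15 in neutrophils (0.954 to 1.39). Dendritic cells stood apart at 25.1 (13 to 55.6), from 226 Ccl4 and 9 Ccl3 UMIs. Neutrophils were the class nearest to equal amounts of both transcripts.

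Ccl5, a chemokine that memory and effector lymphocytes are known to store as message, was highest in NK cells and CD8 T cells among the 9 classes. NK cells held 6608 CPM (6175 to 7064), CD8 T cells 1298 (1272 to 1324), regulatory T cells 528 (434 to 637) and CD4 T cells 435 (370 to 509). The remaining classes held far less, with 175 CPM in dendritic cells (134 to 224), 43.6 in macrophages (35.9 to 52.5), 39.5 in neutrophils (20.4 to 69.1) and 23.0 in monocytes (8.43 to 50). A single macrophage held 31 of the 111 macrophage UMIs, and without it the level was 31.6 CPM. NK cells were first and CD8 T cells second in 6 of 6 sets, with NK means of 3.18, 3.53, 3.58, 3.6, 3.97 and 4.01 against CD8 T means of 1.71 to 2.13. Within each set the NK mean lay above the CD8 T mean, by 1.16 to 2.30.

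Xcl1 was found mainly in NK, CD8 T and CD4 T cells. NK cells held 788 CPM (643 to 955), CD8 T cells 285 (273 to 298) and CD4 T cells 123 (89.2 to 165). Macrophages held 3.54 CPM and dendritic cells 1 UMI, near the hepatoma level. Regulatory T cells held 0 of the 2602 Xcl1 UMIs of set 1, with an upper interval end of 17.9 CPM. The interval of the ratio put CD8 T cells at least 15.9-fold higher. Monocytes and neutrophils also held 0 UMIs, with upper ends of 14.1 and 12.2 CPM. NK cells were first, CD8 T cells second and CD4 T cells next in 6 of 6 sets. Of the 44 Xcl1 UMIs in CD4 T cells, however, 26 came from 1 cell, and the level without it was 55.8 CPM (33.1 to 88.2).

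Ccl1 followed another order, with CD4 T cells at the top. CD4 T cells of set 1 held 105 UMIs, 293 CPM (240 to 355), in 16 of 62 cells, and CD8 T cells 51.8 CPM (46.7 to 57.3) in 88 of 1064 cells. The most Ccl1 in any CD4 T cell was 33 UMIs, and without that cell the class stood at 222 CPM (173 to 279). The class mean of CD4 T cells was the highest in 6 of 6 sets, at 0.292 in set 3 and 0.545 to 0.709 in the other sets, against 0.0862 to 0.145 in CD8 T cells. Regulatory T cells held 1 UMI, and monocytes, neutrophils and dendritic cells held 0. NK cells gave 1185 CPM, but all 155 UMIs lay in 1 cell. That cell had 6261 UMIs, 180 of them Gzmc, 43 Xcl1, 7 Ncr1 and 0 Cd3d, Cd3g, Trac, Cd8a and Cd4. The other 37 NK cells held no Ccl1 UMI, so the NK value describes 1 cell and not the class.

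**Figure D1:**
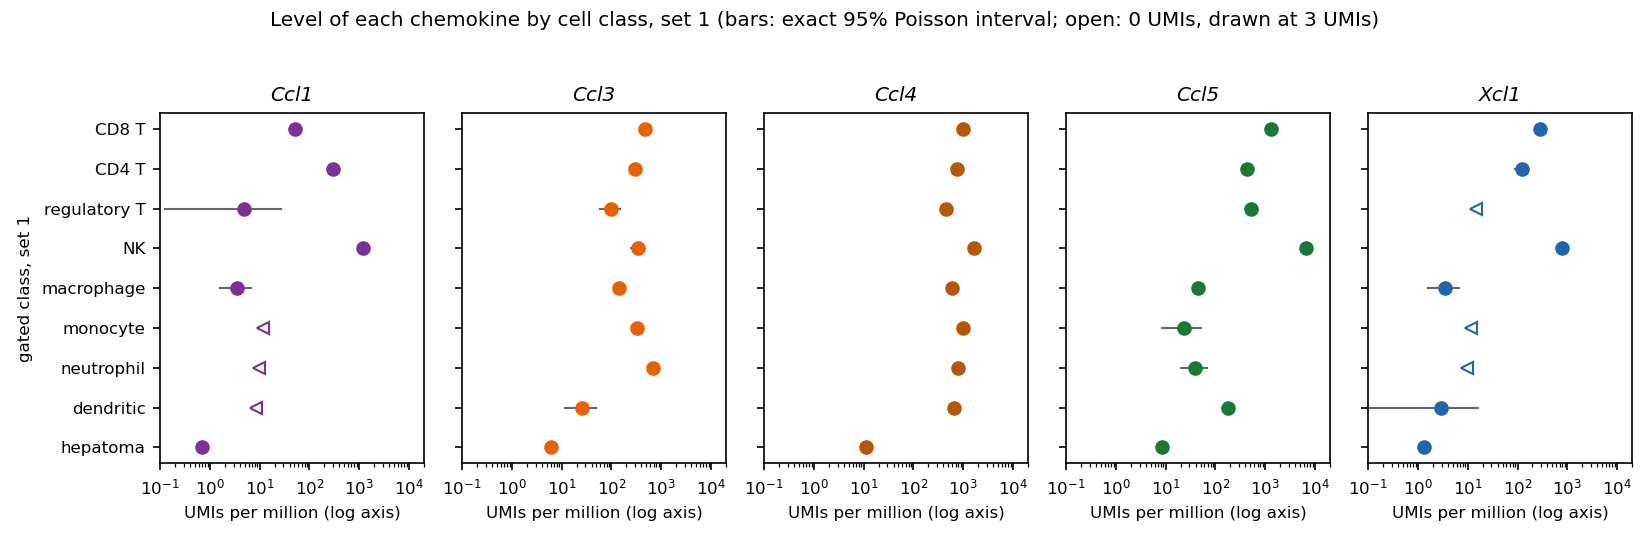
Level of each chemokine in 9 gated classes of set 1, in CPM on a log axis, with exact 95% Poisson intervals; open triangles mark classes with 0 UMIs, drawn at the level of 3 UMIs. Ccl4 was spread over all immune classes (446 to 1667 CPM), whereas Xcl1 stood above 100 CPM only in CD8 T, CD4 T and NK cells; the NK point of Ccl1 came from 1 cell.

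**Figure D2:**
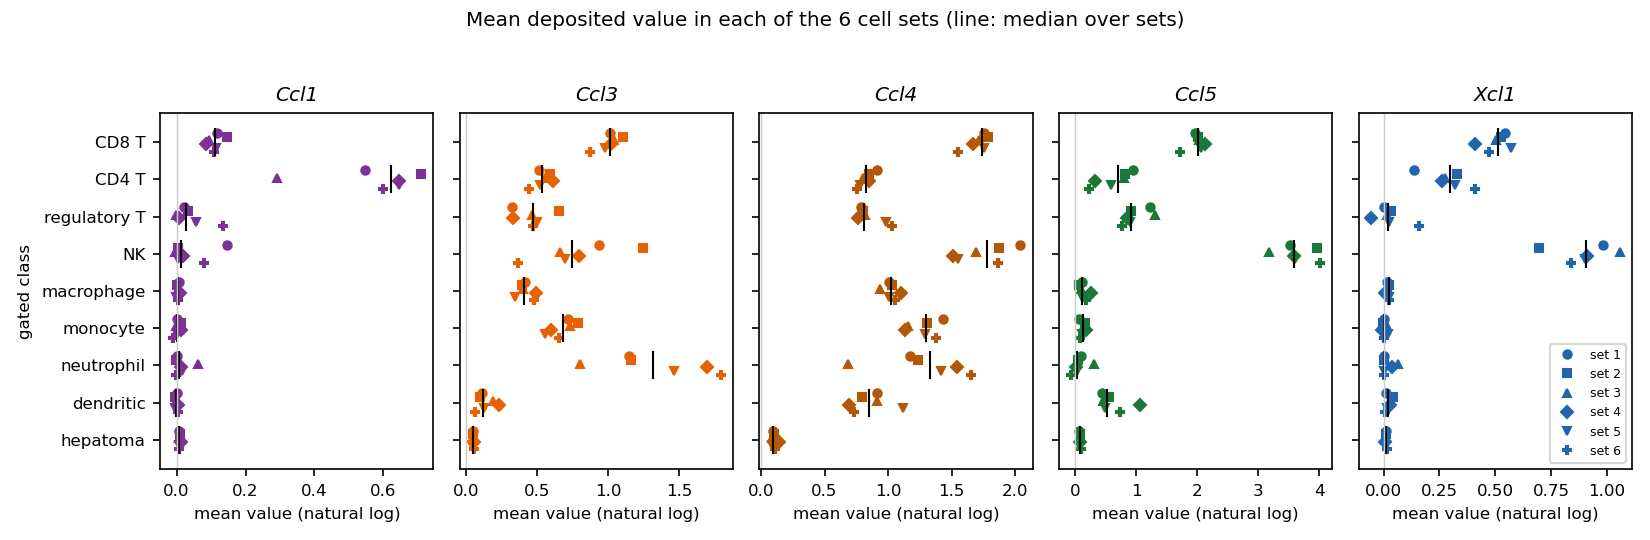
Mean deposited value (natural log) of each chemokine by class, with 1 symbol for each of the 6 cell sets and a line at the median. CD4 T cells were highest for Ccl1, and NK cells for Ccl5 and Xcl1, in 6 of 6 sets, while neutrophil values of Ccl3 and Ccl4 spread widely over sets.

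Which T cells made which chemokine was compared next. CD8 T cells were at least 2-fold above CD4 T cells for 2 of the 5 members and at least 2-fold below for 1, where 22.1% and 12.2% of the 1263 genes compared passed in those directions, so the count itself does not set the members apart. Ccl5 was 2.98-fold higher in CD8 T cells (2.54 to 3.51) and Xcl1 2.32-fold higher (1.72 to 3.21). The CD4 T cell that held 26 of the 44 Xcl1 UMIs narrows this fold. Without that cell CD4 T cells stood at 55.8 CPM (33.1 to 88.2), against 285 in CD8 T cells. On the log2 scale the Xcl1 fold was 1.21, but 2.31 as a mean over cells of CPM and 2.28 with markers above 0.1. Ccl3 was 1.59-fold (1.31 to 1.95) and Ccl4 1.29-fold higher (1.14 to 1.46). However, 1 CD4 T cell held 36 of the 105 Ccl3 and 60 of the 273 Ccl4 UMIs of its class. Without it CD4 T cells stood at 196 CPM (152 to 248) for Ccl3 and 605 (526 to 692) for Ccl4, against 467 and 982 in CD8 T cells. Both folds, and the count of members past 2-fold, thus depend on that cell. Ccl1 went the other way, with a CD8 T to CD4 T ratio of 0.177 (0.142 to 0.222). All 5 directions were shared by 6 of 6 sets: the difference of class means, CD8 T minus CD4 T, was 1.01 to 1.80 for Ccl5, 0.796 to 0.973 for Ccl4, 0.405 to 0.515 for Ccl3, 0.0597 to 0.406 for Xcl1 and -0.564 to -0.198 for Ccl1. With the gates as first written the Ccl4 ratio turned, to -0.12 on the log2 scale.

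Against regulatory T cells, whose suppressive program depends on Foxp3, CD8 T cells were at least 2-fold higher for 5 of 5 members, beside 30.6% of the 1250 genes compared. Ccl4 was 2.20-fold (1.79 to 2.74), Ccl5 2.46-fold (2.03 to 3.00) and Ccl3 4.82-fold higher (3.11 to 7.89). The Ccl4 fold includes 1 regulatory T cell with 34 of the 92 UMIs, and without it regulatory T cells stood at 284 CPM (216 to 368). Ccl1 rested on 1 regulatory T cell UMI and had a ratio of 10.7 (1.91 to 423). Ccl3, Ccl4, Ccl5 and Xcl1 had lower means in regulatory T cells in 6 of 6 sets, and Ccl1 in 5 of 6.

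NK cells exceeded CD8 T cells mainly in Ccl5 and Xcl1. At least 2-fold higher were 3 of 5 members (Ccl1, Ccl5 and Xcl1), or 1 of 5 (Ccl5) without the cell that held all Ccl1 UMIs, beside 17.7% of 1254 genes. With all NK cells, none was at least 2-fold lower, beside 39.3%. Ccl5 was 5.09-fold (4.74 to 5.46) and Xcl1 2.76-fold higher (2.24 to 3.37), and the NK mean lay above the CD8 T mean in 6 of 6 sets, by 1.16 to 2.30 for Ccl5 and 0.171 to 0.555 for Xcl1. Ccl4 was 1.70-fold higher (1.48 to 1.94), yet its NK mean was the higher one in 3 of 6 sets. Ccl3 had a ratio of 0.721 (0.523 to 0.970) and a higher NK mean in 1 of 6 sets. The cell with the Ccl1 UMIs also held 43 of the 103 NK Xcl1 UMIs, and without it Xcl1 stood at 482 CPM (368 to 620), under 2-fold above CD8 T cells. These values depend on the gate: with the gates as first written the NK class of set 1 had 54 cells of 20346 UMIs at the median, hepatoma markers at 6869 CPM against 1965 CPM in the gate used here, and Ccl5 lay below CD8 T cells (log2 ratio -0.80).

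Macrophages and neutrophils shared mainly Ccl3 and Ccl4 with CD8 T cells. Of the 10 member ratios of macrophages and neutrophils to CD8 T cells, 7 were at least 2-fold lower, 4 in macrophages (beside 24.1% of 1437 genes) and 3 in neutrophils (beside 32.3% of 1318 genes). None was at least 2-fold higher, beside 38.3% of genes in macrophages and 45.8% in neutrophils. Macrophages were 3.24-fold below CD8 T cells for Ccl3, 1.64-fold for Ccl4, 29.8-fold for Ccl5 and 80.6-fold for Xcl1, and the direction held in 6 of 6 sets for all 5 members. Cd3d, a T cell transcript, was at 8.65 CPM in macrophages, 22 UMIs beside 111 Ccl5 UMIs. Neutrophils were 1.48-fold above CD8 T cells for Ccl3 (1.28 to 1.70), in 5 of 6 sets, and had a ratio of 0.812 for Ccl4 (0.711 to 0.923), with the lower mean in 5 of 6 sets. Neutrophils held 0 UMIs of Xcl1 and of Ccl1. The intervals of the ratios put them at least 23.4-fold lower for Xcl1 and at least 4.24-fold lower for Ccl1. The Ccl3 excess of neutrophils turned with looser markers (log2 -0.55 and -1.04 with a positive marker above 0.5 and 0.1), and the Ccl4 ratio turned when cells were weighted equally (log2 0.28).

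Monocytes and dendritic cells were set against CD8 T cells in the same way. In monocytes, 3 of 5 members (Ccl1, Ccl5 and Xcl1) were at least 2-fold lower and none was 2-fold higher, beside 39.8% and 28.2% of 1307 genes. Monocyte Ccl4 had a ratio of 0.990 to CD8 T cells (0.870 to 1.12), although its set mean was lower in 6 of 6 sets. In dendritic cells, 4 of 5 members (all but Ccl4) were at least 2-fold lower and none was 2-fold higher, beside 28.7% and 33.3% of 1305 genes. Dendritic cells held 18.1-fold less Ccl3 (9.54 to 39.7) and 7.43-fold less Ccl5 (5.78 to 9.73).

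Macrophages were also split by single genes, chosen after the values were seen. Macrophages with Il1b, an inflammatory cytokine, (1672 cells with a value above 1) had higher means than the other 2303 macrophages in 6 of 6 sets, by 0.148 to 0.260 for Ccl3 and 0.0577 to 0.390 for Ccl4. Macrophages with Tnf, another such cytokine, were higher in 6 of 6 sets by 0.0960 to 0.340 and 0.0991 to 0.656. With Cxcl9, an interferon-induced chemokine, Ccl3 was lower in 6 of 6 sets (-0.114 to -0.0214) and Ccl4 in 4 of 6 (-0.216 to 0.0596). Across macrophages, Ccl3 and Ccl4 correlated at 0.292 to 0.458 over the sets, and across neutrophils at 0.299 to 0.663. In monocytes of set 1, 811 of 814 UMIs of the neutrophil gene S100a8 lay in 1 cell. The remaining monocytes held 3 S100a8 UMIs (12.2 CPM). S100a8 is a neutrophil gate gene, and cells that passed both the monocyte and the neutrophil gate were left out. The gates therefore shape the S100a8 level of monocytes, and the source of Ccl3 and Ccl4 in that class was not tested.

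Dendritic cells split by subset, and the subsets used different members. Mature dendritic cells (Ccr7, Fscn1 and related genes, 179 cells) carried Ccl5, with set means of 1.29 to 2.30. Type 1, Cd209a-positive and plasmacytoid cells stayed between -0.0512 and 0.207. The mature mean lay below the CD8 T mean in sets 1, 2, 3 and 5 (1.29 against 1.96 in set 1). It lay above in sets 4 (2.30 against 2.13) and 6 (2.14 against 1.71). Plasmacytoid cells (Siglech and related genes, 105 cells) carried Ccl4 at 1.93 to 3.16, and Cd209a-positive cells (71 cells) at 0.744 to 2.07. Type 1 cells (Xcr1, Clec9a, 165 cells) held Ccl4 at 0.324 to 0.813, and mature cells at -0.0122 to 0.177. Within every set, mature cells had the highest Ccl5 mean of the subsets and plasmacytoid cells the highest Ccl4 mean. In set 1, 16 mature cells held 44 Ccl5 UMIs, 398 CPM (289 to 534), below the 1298 CPM of CD8 T cells (1272 to 1324), and 0 Ccl4 UMIs. The 6 plasmacytoid cells held 97 Ccl4 UMIs, 3435 CPM (2786 to 4191), and 0 Ccl5 UMIs. A set held as few as 6 plasmacytoid or Cd209a-positive cells.

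**Figure D3:**
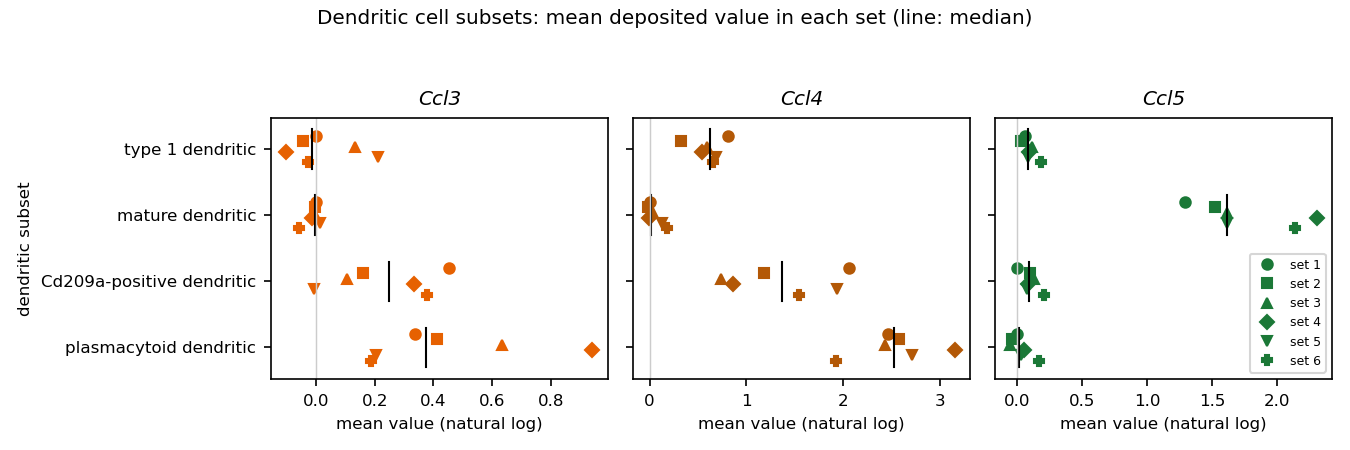
Mean deposited value (natural log) of Ccl3, Ccl4 and Ccl5 in 4 dendritic subsets, with 1 symbol for each of the 6 cell sets and a line at the median. Ccl5 lay at 1.29 or above in mature cells only, and Ccl4 was highest in plasmacytoid cells (1.93 to 3.16).

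CD8 T cells, the largest immune class, held more UMIs of each of the 5 genes than any other class. In set 1 they held 47.6% of the 788 Ccl1 UMIs, 60.3% of 5598 Ccl3, 55.6% of 12787 Ccl4, 71.7% of 13107 Ccl5 and 79.3% of 2602 Xcl1 UMIs. NK cells held 6.59% of Ccl5 and macrophages 11.9% of Ccl4. Hepatoma cells, at a low level per cell but numerous, held 7.53% to 16.1% of each member. Of the 5 transcripts together, Ccl5 made up 42.1% in CD8 T and 62.4% in NK cells, and Ccl4 75.4% in macrophages and 73.4% in monocytes.

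Members also differed in how evenly CD8 T cells shared them. The 107 cells with the most UMIs of a gene, of 1064, held 47.4% of the Ccl5 UMIs, 50.7% of Ccl4, 63.1% of Ccl3, 81.2% of Xcl1 and all of Ccl1. The richest CD8 T cells held 131 Ccl5, 89 Ccl4, 166 Ccl3, 170 Xcl1 and 56 Ccl1 UMIs. These cells had 4603, 58521, 21514, 58521 and 17107 UMIs in all, against a class median of 5163. Neither these counts nor the shares of the 107 cells were corrected for depth. Ccl5 was found in 74.0% of CD8 T cells (71.2% to 76.6%) and, with every cell thinned to 1000 UMIs, in 49.7%. For Ccl4 the shares were 75.1% and 46.6%, for Ccl3 53.8% and 26.0%, for Xcl1 30.0% and 13.8% and for Ccl1 8.27% and 2.72%. Ccl4 and Ccl5 were thus found in more cells than Xcl1 and Ccl1, also at a common depth. At 1000 UMIs, 24.6% of CD8 T cells showed none of the members, 33.8% showed 1, 26.9% showed 2, 12.5% showed 3 and 2.16% showed 4 or 5.

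Within CD8 T cells the members were compared pair by pair. The Pearson correlation across cells, given over the 6 sets as a description (cells of a set share library and depth), was 0.471 to 0.62 for Ccl3 and Ccl4, the highest of the 10 pairs. Ccl4 and Ccl5 gave 0.301 to 0.360, Ccl3 and Ccl5 0.223 to 0.280, and Ccl1 and Xcl1 0.225 to 0.364. Ccl5 and Xcl1 were negatively correlated in 6 of 6 sets, from -0.301 to -0.202, and so were Ccl1 and Ccl5, from -0.146 to -0.0593. Rank correlations kept these signs except for the pairs with Ccl1, where Spearman values ran from -0.117 to 0.269 with Xcl1 and from -0.119 to 0.176 with Ccl5. The other 4 pairs lay between -0.124 and 0.129. The median correlation of each member with the 613 genes detected in at least 10% of these cells was -0.0408 to 0.00352.

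Co-detection was counted at a common depth. With each CD8 T cell of set 1 thinned to 1000 UMIs, Ccl3 and Ccl4 were found together in 204 of 1064 cells, against 124 from the product of the single shares. Ccl4 was found in 73.9% of the cells with Ccl3 and 34.6% of the cells without. Ccl5 and Xcl1 were found together in 53 cells, against 65.4 from the product. Ccl1 and Xcl1 met in 9 cells, against 3.2, and Ccl1 and Ccl3 in 13, against 6.48, too few to weigh. Thinning lowered the Ccl3 and Ccl4 correlation in set 1 from 0.587 to 0.371, and cells above the median depth gave 0.610.

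NK cells showed the same signs with wider spread. Ccl3 and Ccl4 correlated at 0.287 to 0.642, Ccl4 and Ccl5 at 0.257 to 0.520 and Ccl3 and Ccl5 at 0.224 to 0.430, while Ccl5 and Xcl1 were negative in 6 of 6 sets, from -0.437 to -0.0117. The last sign depended on the gate in set 1, where the value was -0.0117 with the gate used here, 0.141 and 0.340 with markers above 0.5 and 0.1, and 0.0496 with cells thinned to 1000 UMIs. In CD4 T cells, the Ccl3 and Ccl4 pair reached 0.614 to 0.80.

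**Figure D4:**
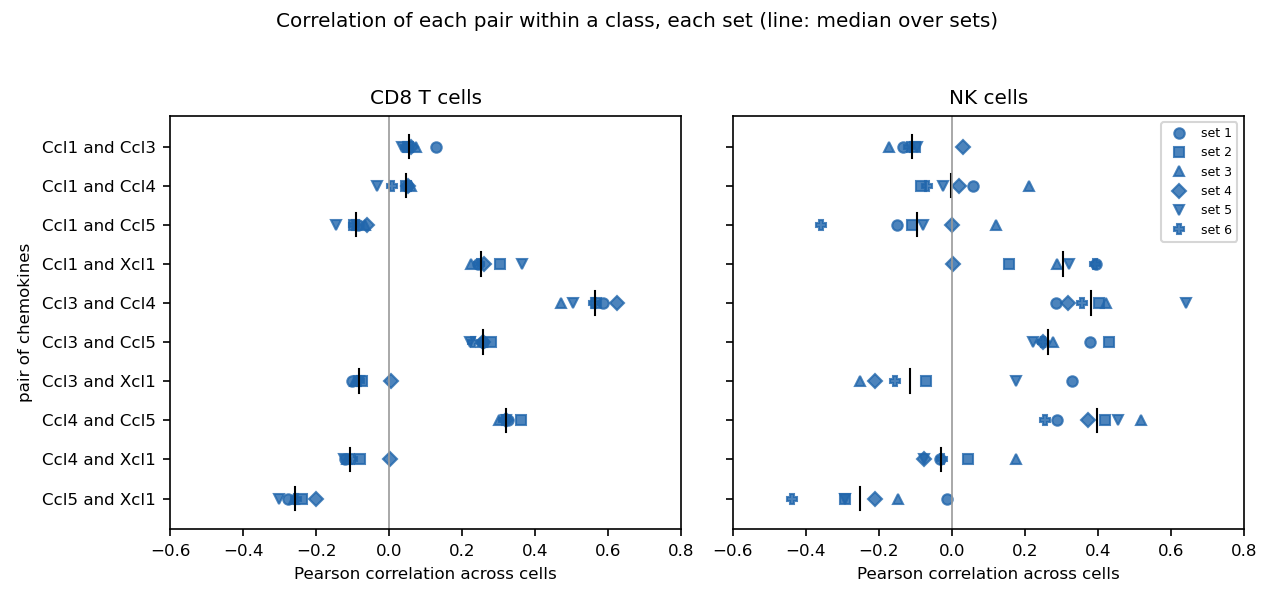
Pearson correlation across cells for the 10 pairs of chemokines, in CD8 T cells and in NK cells, with 1 symbol for each of the 6 cell sets and a line at the median. In CD8 T cells Ccl3 and Ccl4 lay at 0.471 to 0.62 and Ccl5 and Xcl1 at -0.301 to -0.202.

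The genes most like each member in CD8 T cells were ranked by correlation. For Ccl3 they were Prf1 (0.245), Gzmb (0.235), Havcr2 (0.224), Ifng (0.219) and Nr4a2 (0.188), and for Ccl4 they were Nr4a2 (0.230), Ifng (0.216), Gzmb (0.187), Nkg7 (0.185) and Havcr2 (0.170). Prf1 and Gzmb encode perforin and granzyme B of the killing machinery, Ifng encodes interferon gamma, and Nr4a2 is a nuclear receptor induced by T cell receptor signals. For Ccl5 they were Nkg7 (0.302), Gzmk (0.231), Gimap6 (0.226), Gzmb (0.222) and Cd52 (0.217). Xcl1 had Crtam (0.258), Emb (0.210), Tnfsf11 (0.200), Gadd45b (0.195) and Cd160 (0.189), and Ccl1 had Nrgn (0.241), Tnfsf11 (0.210), Crtam (0.208), Gadd45b (0.173) and Cd200 (0.164). Crtam, Tnfsf11 (RANKL) and Gadd45b, genes known to rise on T cell activation, thus stood on the lists of both Xcl1 and Ccl1 and on no other. The correlations are over 1064 cells of set 1, where the 95th percentile over all 613 genes lay between 0.0824 and 0.104. In sets 2 to 6 all 25 partners kept a positive correlation, from 0.0288 for Ccl1 and Cd200 to 0.387 for Xcl1 and Crtam.

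NK cells divided more sharply, and granzymes led the lists. Over 427 NK cells with set means removed, Ccl5 went with Gzma (0.716), Irf8 (0.463), Gzmb (0.458), Tyrobp (0.417) and Nkg7 (0.392), and Xcl1 with Gzmc (0.383), Cd160 (0.255), Ccr2 (0.254), Bcl2a1b (0.25) and Thy1 (0.240). Gzma encodes granzyme A of circulating-type NK cells, and Gzmc encodes granzyme C. Ccl3 (Gzma, Klrb1c, Cma1, Gzmb and Ifng) and Ccl4 (Gzma, Gzmb, Prf1, Dusp2 and Tmsb4x) had partners at 0.213 to 0.258. Ccl1, found in 1.17% of NK cells, had Gzmc (0.387), Isg15, Lig1, Stmn1 and Bcl2a1b. In set 1 its UMIs lay in 1 cell, which also held 180 Gzmc UMIs. Its correlations with Isg15, Lig1 and Stmn1 changed sign within sets 2 to 6 (lowest -0.0639, -0.204 and -0.0132). The 95th percentile over 340 genes was 0.124 to 0.232.

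Splits of NK cells by these granzymes, chosen from that list and so not independent of it, show the values in each set. NK cells with Gzma (355) had Ccl5 means of 4.01 to 4.69 and those without (72) 0.115 to 2.55. Within sets the difference was 1.58 to 4.57. For Xcl1 the cells with Gzma had 0.549 to 0.895 and those without 1.26 to 2.18, with differences of -1.60 to -0.361 within sets. NK cells with Gzmc (49) had Xcl1 means of 1.66 to 2.67 against 0.547 to 0.872 in the 378 without, and Ccl5 means of 1.31 to 2.68 against 3.39 to 4.39. Both granzymes were found together in 22 of 427 NK cells, Gzma alone in 333, Gzmc alone in 27 and neither in 45. The class thus held many cells high in Ccl5 and a minority high in Xcl1. A set held as few as 4 cells with Gzmc, and in set 1 these cells were deeper (median 6261 against 2313 UMIs), a difference whose part was not tested.

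CD8 T cells were then split by 6 state genes. Over the 30 pairs of these genes with the members, 19 differed in the same direction in 6 of 6 sets. The same count was not made over all genes of the table, so it is not read as a trait of the members. Cells with Mki67, a marker of division, had lower Ccl5 in 6 of 6 sets, with differences of -1.0 to -0.438, and so did Gzmc-positive cells, with -1.08 to -0.692. In set 1 Ccl5 stood at 695 CPM with Mki67 and 1486 without, and at 431 CPM with Gzmc and 1350 without, when each cell was weighted by its chance of a UMI of the state gene at 1000 UMIs. Mki67-positive cells were deeper in set 1, with a median of 7370 against 3992 UMIs. So were Gzmc-positive cells, with 8474.5 against 5066 UMIs. The part of depth in the Mki67 and Gzmc splits was not tested. Xcl1 was lower with Gzmc in 6 of 6 sets (-0.318 to -0.0743), the opposite of its direction in NK cells.

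Havcr2 (TIM-3), an inhibitory receptor of chronically stimulated T cells, was compared in the same way. Cells with Havcr2 had higher Ccl3, Ccl4 and Ccl5 in 6 of 6 sets, by 0.347 to 0.492, 0.333 to 0.470 and 0.243 to 0.442, and lower Xcl1 in 6 of 6 sets (-0.352 to -0.0996). Ccl1 was also higher with Havcr2 in 6 of 6 sets, by 0.0183 to 0.0787, but its levels in set 1 were close (56.7 CPM with and 50.8 without). In set 1 Ccl3 stood at 639 CPM with Havcr2 and 430 without, and Xcl1 at 184 and 307 CPM. Depth was alike on both sides of that split (5239 and 5065 UMIs).

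Tnfrsf9 (4-1BB), induced by T cell receptor signals, went with higher Ccl1 and Ccl3 in 6 of 6 sets, by 0.0599 to 0.0992 and 0.143 to 0.302, and with lower Ccl5 in 6 of 6 (-0.441 to -0.149). Pdcd1, which encodes PD-1, went with higher Ccl1, Ccl3 and Ccl4 means in 6 of 6 sets. For Ccl3 the sum of UMIs in set 1 did not follow, with 456 CPM with Pdcd1 and 478 without. For Ccl1 it hardly differed, with 52.2 CPM with Pdcd1 and 51.4 without. Il7r, the interleukin 7 receptor of long-lived T cells, went with lower Ccl3 and Ccl4 in 6 of 6 sets (-0.549 to -0.0801 and -0.353 to -0.0638).

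**Figure D5:**
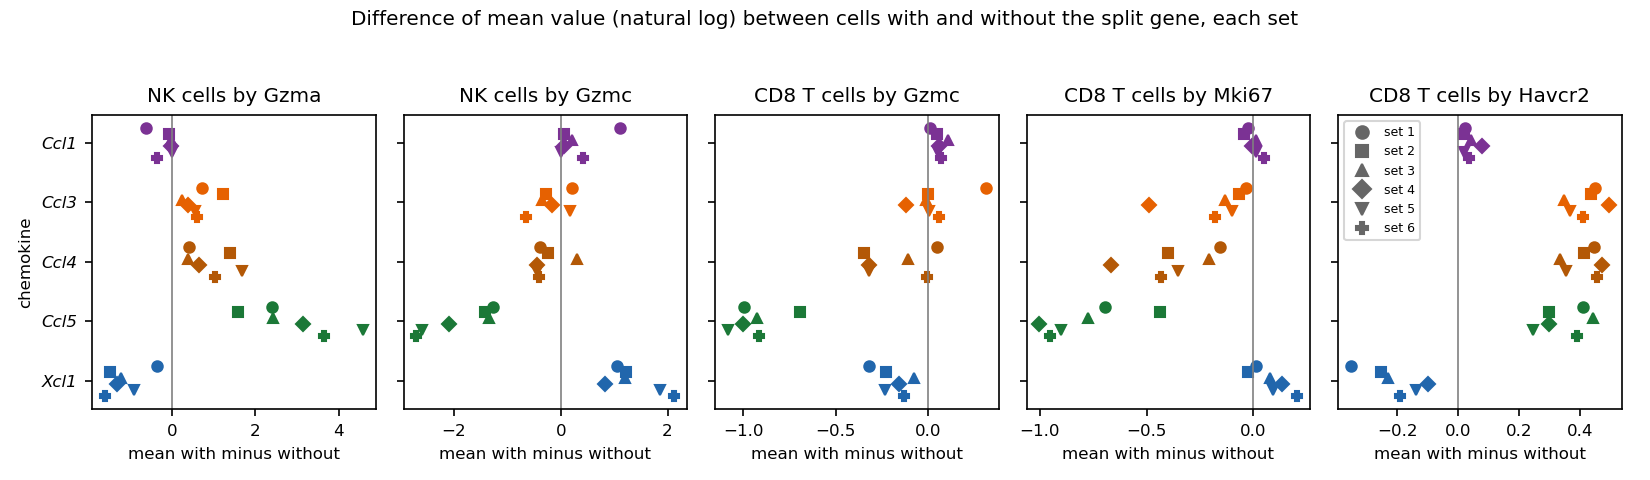
Difference of the mean deposited value (natural log) between cells with and without the split gene, for NK cells split by Gzma and by Gzmc and CD8 T cells split by Gzmc, Mki67 and Havcr2, with 1 symbol for each of the 6 cell sets. Xcl1 and Ccl5 moved in opposite directions in both NK splits and in the Havcr2 split in 6 of 6 sets, whereas both were lower in CD8 T cells with Gzmc; the axes of the panels differ in range.

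In CD4 T cells the Ccl1-high cells were sought with genes chosen after the values were seen. Ccl1 was higher with Il2ra, the high-affinity interleukin 2 receptor chain, in 6 of 6 sets (127 cells, by 0.233 to 0.816), with Pdcd1 (521 cells, by 0.161 to 0.553) and with Havcr2 (254 cells, by 0.0920 to 0.734). Ccl1 was lower with Ctla4, an inhibitory receptor, in 6 of 6 sets (592 cells, -0.751 to -0.101). Havcr2-positive CD4 T cells also had higher Ccl3 (by 0.465 to 1.33) and Ccl4 (by 0.670 to 1.66) in 6 of 6 sets. These splits were not thinned, and their relation to depth was not tested.

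Receptors for the members were read from the same cells. Ccr1, which binds Ccl3 and Ccl5, was myeloid, at 293 CPM in neutrophils, 242 in macrophages and 237 in monocytes, with overlapping intervals, and 5.94 in CD8 T cells. Within each of the 6 sets the neutrophil mean (0.881 to 1.64) lay above the macrophage (0.664 to 0.786) and monocyte means (0.547 to 0.856). The order of the latter classes was not settled. Xcr1, the Xcl1 receptor, was at 175 CPM in dendritic cells, where it is a gate gene, and at 2.79 CPM or less in the other classes. Ccr3 and Ccr8 were not analysed here.

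Among the 30 chemokine ligands of the family list in the table, 4 had their highest level in NK cells, all of them members (Ccl1, through 1 cell, Ccl4, Ccl5 and Xcl1). Ccl3 was highest in neutrophils. Of the other ligands, Ccl2, Ccl6 and Ccl9 were highest in monocytes, Ccl7, Ccl8, Ccl12, Ccl24, Cxcl9 and Pf4 in macrophages, Cxcl2 and Cxcl3 in neutrophils, Cxcl1, Cxcl5 and Cxcl15 in hepatoma cells, and Ccl17 and Ccl22 in dendritic cells, each with an interval above those of all other classes. For the rest the interval of the leading class overlapped that of another, as for Cxcl10 at 873 CPM in monocytes (764 to 994) and 808 in macrophages (773 to 843).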

How the data were processed

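A single deposited table held natural log values of 2000 genes in 53528 cells. STAR 2.7.2b aligned the reads, PISA made the UMI counts and DropletUtils chose the cells, per the labels' protocols. The protocols name GRCh38 and the submitters' processing notes name GRCh38 and mm10, so the build behind the table is not settled. None of the 53528 columns could be given to a sample. Set 1 values gave whole UMIs in 100% of entries (within 0.01). Table genes held 15.0% of UMIs.

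The members and lists were chosen with earlier results of these data known. The gates were changed after the data were seen: as first written (1 UMI in set 1, a value above 0.25 elsewhere) they admitted deep hepatoma cells to the NK class. Here a marker is positive above a value of 1 in every set, T cells also need Cd3d, Cd3g or Trac, and NK cells lack Trac. T, NK and dendritic gates need 2 markers, the others 3, and cells passing 2 gates were left out. Doublets were called in set 1 with Scrublet in scanpy 1.11.5 (91 cells, 0.971%) and left out of UMI levels, not of set means. CPM are summed UMIs over summed totals, with exact Poisson, Clopper-Pearson and conditional Poisson intervals at 95%, for counting error only. Background shares count genes with at least 10 UMIs in both classes together and a ratio of 2 or more after adding 1 CPM. The state split in set 1 weights each cell by its chance of a UMI at 1000 UMIs, in place of 1 random draw. Cell names are running numbers, so cell barcodes shared between sets could not be counted. Some genes of the lists are not reported here. Named genes were the members, their receptors, the leading class of each family gene, the 5 nearest genes of each member and the state genes; splits by Il1b, Tnf, Il2ra, Ctla4 and NK granzymes were added later. Code was tested on simulated data. Analyses used Python 3.11.15, numpy 2.4.6 and scipy 1.17.1.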

Additional observations from a re-analysis of the deposited data

Results flagged for a closer look

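Of 45 class means of the members, 2 had 1 set far from the other 5, where chance flags about 1 in 20. Ccl1 in neutrophils of set 3 had a mean value of 0.0629, against -0.0029 to 0.0144 in the other sets. Ccl1 in hepatoma cells of set 4 had a mean value of 0.0135, against 0.00639 to 0.00849. Both lie below the lowest CD8 T mean of Ccl1, and no result of the text rests on them.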

How the results depend on the processing

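Over all alternatives, 242 of 358 values stayed within their interval or spread, 98 moved and 18 turned. The number of members at least 2-fold higher in NK than in CD8 T cells, 3 as reported, was 1 with positive markers above 0.1, 1 with 1 more marker, 0 with the gates as first written and 1 without the NK cell that held the Ccl1 UMIs. The number of members highest in NK cells, 4 as reported, was 0 with markers above 0.1 and 0 with the gates as first written. Under those 2 gates the NK class held 88 and 54 cells of set 1, with median depths of 9930 and 20346 UMIs against 2694.5, and Ccl5 was higher in NK than CD8 T cells in 1 and 3 of 6 sets. The Ccl3 and Ccl4 correlation in CD8 T cells of set 1, 0.587 as reported, was 0.646 with the gates as first written and 0.371 with cells thinned to 1000 UMIs. The counts of the CD8 T to CD4 T and myeloid to CD8 T ratios, of set directions (15 as reported, 15 to 16) and of state pairs (19 as reported, 19 to 21) stayed within 1.5 times.

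Log2 ratios that turned were these. With the gates as first written, they were CD8 T to CD4 T Ccl4 -0.12, NK to CD8 T Ccl1 -4.13, Ccl4 -2.97, Ccl5 -0.80 and Xcl1 -3.66, and macrophage to CD8 T Ccl4 0.23. With markers above 0.1, NK to CD8 T gave Ccl4 -1.79, Ccl5 -0.42 and Xcl1 -0.92, and neutrophil to CD8 T gave Ccl3 -1.04. With markers above 0.5, NK to CD8 T gave Ccl4 -0.02 (-0.0205), and neutrophil to CD8 T gave Ccl3 -0.55. With 1 more marker, NK to CD8 T gave Ccl1 -5.74 and neutrophil to CD8 T gave Ccl4 0.15, and without the 1 NK cell Ccl1 gave -5.72. With cells weighted equally, NK to CD8 T gave Ccl3 0.08 (0.0801) and neutrophil to CD8 T gave Ccl4 0.28, and with cells thinned to 1000 UMIs the latter was 0.26. Ccl1 lost its value without 1 cell by construction; for the others the cause was not tested. The alternatives on gates and thinning were planned, and the gates as first written and the NK cell were added after seeing the data. No paired analysis was possible because no cell could be given to a group. Depth limits Ccl1 and Xcl1 in regulatory T and myeloid cells. For Xcl1, at 0 UMIs, the upper interval end was 17.9 CPM in regulatory T cells, 14.1 in monocytes and 12.2 in neutrophils.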
